A study of Homo sapiens with 12 samples.

Results

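Voltage-gated and related ion channel genes were examined in HEK293 cells that overexpressed PEG10 or a fragment of it. The genes were chosen by symbol alone, as every gene of the count table named as a potassium channel gene (KCN followed by letters and a number), a sodium channel gene (SCN with a number and A or B) or a calcium channel gene (CACNA, CACNB, CACNG and CACNA2D), without antisense genes. This rule gave 135 of the 26485 gene symbols in the table. Of these, 97 were well counted, meaning 10 or more counts in at least 3 of the 12 libraries, and 96 passed the filter on low counts and were tested. The well-counted gene that was not tested was *KCNA5*, a voltage-gated potassium channel subunit, with 2 to 12 counts per library. The rule itself used no measured value, although this family was taken up with earlier results of these data known.

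HEK293, a cell line from human embryonic kidney with a wild-type genotype, was transfected with 1 μg of plasmid and harvested for polyadenylated RNA 48 hr later. The 4 groups of 3 libraries received full-length PEG10 (gag-pol), its first reading frame (gag), the nucleocapsid fragment that lies within gag (NC), or a control plasmid labelled LifeAct Dendra2, a fluorescent actin-binding protein. PEG10 is a domesticated retrotransposon gene, and gag-pol is made by a ribosomal frameshift. The constructs were driven by a CMV promoter in transiently transfected cells, and the methods describe no sorting of transfected cells before RNA extraction. The design text gives 3 independent passages of cells, and the replicate number that ends each label was used as a term in every comparison.

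Voltage-gated channels are membrane proteins that open when the membrane potential changes and pass potassium, sodium or calcium ions. A pore-forming subunit determines the ion, and auxiliary subunits adjust how many channels reach the surface and how they gate. Together they generate and end the action potential in neurons, heart and muscle, and many of them are concentrated at the axon and its initial segment. HEK293 cells are best known in this field as a host for channels that are introduced by transfection, although they transcribe some channel genes of their own. The symbol rule also takes inward rectifiers (KCNJ) and 2-pore-domain channels (KCNK), which share the potassium pore but lack a voltage sensor domain, and the gamma subunits (CACNG), several of which serve glutamate receptors.

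The libraries held 30625725 to 45316749 counts, and the channel genes made up a small part of them. The 135 genes took 0.0996% ± 0.0096 (SD, n = 3) of all counts in control, 0.103% ± 0.0108 in gag-pol, 0.0957% ± 0.0113 in gag and 0.104% ± 0.0114 in NC, and 84 to 94 of them had 10 or more counts in a given library. *PEG10* itself took 0.0306% ± 0.0066 (SD, n = 3) of counts in control, 4.54% ± 2.46 in gag-pol, 5.27% ± 1.29 in gag and 0.310% ± 0.0757 in NC, in the direction of the labels in every library. These shares are not corrected for the length of the insert, which is longest in gag-pol and shortest in NC. Of 9 genes typical of HEK293, all 9 were detected in every library, and their summed level was 30464 to 37649 normalized counts in the 6 control and gag libraries and 38475 to 49610 in the 6 gag-pol and NC libraries. The sum does not stand for each gene, as their median log2 fold change against control was 0.01 for gag-pol, -0.07 for gag and 0.10 for NC. Of 18 markers of neurons, fibroblasts, leukocytes, muscle and liver, 3 (*DCN*, *PTPRC* and *CD3E*) had a median count of 0.

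Channel genes spanned several orders of magnitude in level. Levels between genes are given as normalized counts per kb of exon, where a normalized count is the count after TMM scaling of its library to the average depth. The highest level was that of *KCNJ4*, an inward rectifier, at 597 ± 106 per kb (SD, n = 12 libraries). It was followed by *CACNA1H*, the pore of a low-voltage-activated T-type calcium channel, at 369 ± 98.5 per kb, *KCNK1*, a 2-pore-domain channel, at 317 ± 29.3 per kb, *KCNH2*, the hERG channel of cardiac repolarization, at 298 ± 52.0 per kb, and *KCNG1*, a silent subunit that modifies other potassium channels, at 286 ± 91.7 per kb. *KCNJ4* stood apart from the next gene by more than 1 SD, and the 4 that followed lay within 1 SD of each other, taking the larger SD of each pair. The 10 highest also held *KCNK5* at 203 ± 43.7 per kb, *CACNB3* at 195 ± 31.8, *CACNB1* at 177 ± 30.7 and *KCNJ11* at 167 ± 20.8, and each of these differed from the next by less than 1 SD.

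**Figure D1:**
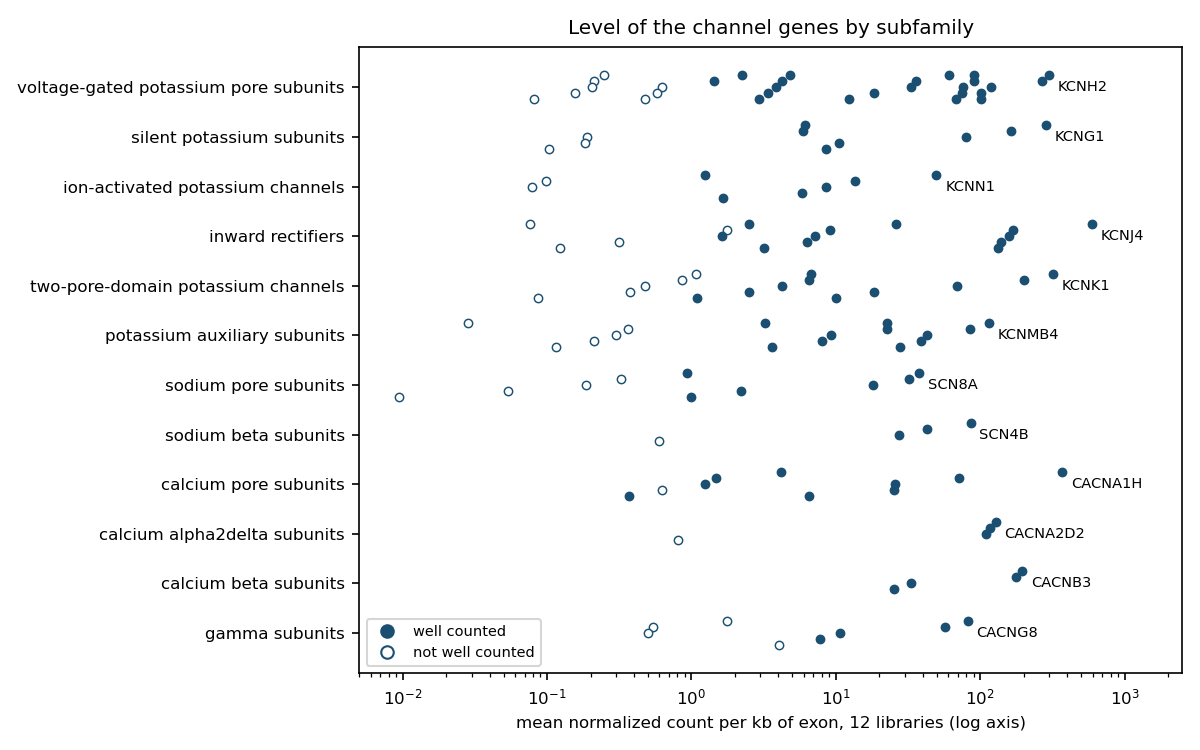
Mean level of each of the 135 channel genes over the 12 libraries (normalized count per kb of exon, log axis), by subfamily; filled points are the 97 well-counted genes and open points the 38 others. Every subfamily holds both well-counted and barely counted genes except the calcium beta subunits, where all 4 were well counted, and *KCNJ4* has the highest level at 597 per kb.

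By role, 22 of 30 voltage-gated potassium pore subunits, 7 of 10 silent subunits, 6 of 8 ion-activated potassium channels, 12 of 16 inward rectifiers, 10 of 15 2-pore-domain channels and 11 of 16 potassium auxiliary subunits were well counted. Among sodium channel genes, 6 of 10 pore subunits and 3 of 4 beta subunits were well counted. Among calcium channel genes this held for 9 of 10 pore subunits, 3 of 4 alpha2delta subunits, all 4 beta subunits and 4 of 8 gamma subunits. The sodium pore subunits were the lowest group, with a median of 0.962 per kb, and their highest member was *SCN8A*, the sodium channel of the nodes of Ranvier, at 37.8 per kb. The leading members of the other groups were *KCNN1* at 49.8 per kb (a small-conductance calcium-activated channel), *KCNMB4* at 116 (a beta subunit of the large-conductance BK channel), *SCN4B* at 85.9, *CACNA2D2* at 128 and *CACNG8* at 82.1. *SCN2A*, a main sodium channel of the axon initial segment, reached 13.3 to 32.2 normalized counts per library, and no comparison of constructs called it or *KCNH2*. The 38 genes that were not well counted summed to between 1 and 76 counts over all libraries (median 16), with no count above 23 in any library. No channel gene was at 0 in all libraries.

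Reads of some genes could come from neighbors or copies. Of the genes tested, 4 had over 10% of their exon bases inside another gene, each on the opposite strand, among them *KCNMB3* (38.0%, *PIK3CA*), *KCNIP4* (38.5%, *PACRGL*) and *KCNIP2* (13.1%, *KCNIP2-AS1*). The strand setting of the counting is not given, so these levels are uncertain, and so are those of *KCNJ12*, which has a near-identical copy in *KCNJ18*.

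PEG10 gag-pol changed 12 of the 96 channel genes tested, and 10 of these were higher than in control. The genes that rose included the pore subunits *KCNA3* and *KCNC4*, the silent subunits *KCNG1* and *KCNF1*, the calcium-activated channels *KCNMA1* and *KCNN2*, and the auxiliary subunit *CACNB4*. *KCND1*, which carries a transient A-type potassium current, and *KCNE2*, a small auxiliary potassium subunit, fell. In these bulk libraries, a change in RNA per cell and a change in the share of cells that express a gene cannot be told apart. A gene was called when its Benjamini-Hochberg adjusted p-value, over the 17176 genes tested with edgeR's quasi-likelihood F test, was under 0.05. The 12 calls were 12.5% of the channel genes, near the 11.3% of all genes tested that were called in the same comparison, of which 5.48% were higher and 5.83% lower. The median log2 fold change was 0.09 for the channel genes and -0.00 for all genes, and the median absolute log2 fold change was 0.27 and 0.18. Between replicate numbers the median range on the log2 scale, a different measure, was 0.63 for the channel genes and 0.38 for all genes. The part of low counts in these larger values was not tested. The number of calls fell to 6 without control replicate 3 and to 7 without gag-pol replicate 1, 2 or 3, and to 0 when the replicate number was not a term in the model (edgeR; 7 channel genes at an unadjusted p-value under 0.05, and 2 calls among all genes tested). DESeq2, with the replicate number, called 12. Over all genes tested the calls were 1942 in the full fit, 737 without control replicate 3 and 2436 by DESeq2.

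NC changed 7 of the 96 genes. Of these, 5 were higher than in control, among them the voltage-gated potassium subunit *KCNQ1*, the silent subunit *KCNG1* and the BK channel pore *KCNMA1*. *CACNB1*, a beta subunit of high-voltage-activated calcium channels, and *SCN11A*, a sodium channel of sensory neurons, were lower. In this comparison 11.2% of all genes tested were called, 6.04% higher and 5.15% lower, against 7.29% of the channel genes. The median log2 fold change was 0.00 both for the channel genes and for all genes. The count was 3 without control replicate 3, NC replicate 1 or NC replicate 3, was 11 without gag-pol replicate 3, was 11 by DESeq2, and was 0 in edgeR without the replicate number in the model (5 at an unadjusted p-value under 0.05).

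PEG10 gag changed 1 of the 96 genes, *CACNB4*, a calcium channel beta subunit of the brain, which was higher. Of all genes tested, 1.08% were called. At an unadjusted p-value under 0.05 there were 13 channel genes for gag (13.5%, beside 13.7% of all genes tested). The numbers were 27 for gag-pol (28.1%, beside 27.3%) and 18 for NC (18.8%, beside 27.1%). *CACNB4* was no longer called, leaving 0, without control replicate 1, control replicate 3 or any of the gag libraries, and the count was 2 without gag-pol replicate 2, gag-pol replicate 3 or NC replicate 2. Without the replicate number in the model edgeR called 0 (4 at an unadjusted p-value under 0.05), and DESeq2 with it called 3. Over all genes tested the calls were 186 in the full fit, 33 without gag replicate 1, 426 without control replicate 3 and 443 by DESeq2. These 3 comparisons share the control libraries, so the lists of called genes are not independent of each other.

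Gag-pol and gag differed in 1 channel gene, which was higher with gag-pol, while 6.46% of all genes tested were called. The count changed with most libraries left out. It was 0 without gag-pol replicate 3 (edgeR), 2 and 4 without gag-pol replicates 1 and 2, 5, 3 and 8 without control replicates 1, 2 and 3, and 7 and 6 without NC replicates 2 and 3. In the full fit, 21 channel genes (21.9%) had an unadjusted p-value under 0.05, beside 23.4% of all genes tested. DESeq2 called 8 genes in the same comparison, and an edgeR fit to the 6 libraries of the compared groups called 12. Over all genes tested the calls were 1109 in the full fit, 1603 by DESeq2 and 2628 of 16517 in the fit to 6 libraries. They were 130 without gag-pol replicate 3 and 1849 without control replicate 3. Without the replicate number in the model edgeR called 0, with 1 at an unadjusted p-value under 0.05.

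NC and gag differed in 16 channel genes, 12 of them higher and 4 lower with NC. Those higher with NC included *CACNG6*, *KCNQ1*, *KCNMA1* and its beta subunit *KCNMB4*, *KCNC1* (a fast delayed rectifier), *KCNG1*, *SCN4B* and *CACNA1B*, the pore of N-type calcium channels. *KCNK5*, an acid-sensitive 2-pore-domain channel, was among those lower with NC. The 16 calls were 16.7% of the channel genes, beside 16.9% of all genes tested, of which 8.76% were higher and 8.12% lower. The count was 6, 8 and 9 without gag replicates 1, 2 and 3, 4 without NC replicate 1 and 10 without NC replicate 3. Over all genes tested the calls were 2898 in the full fit, and 940, 1658, 1995, 1354 and 2261 in these fits. The count of channel genes was 0 in edgeR without the replicate number in the model (11 at an unadjusted p-value under 0.05). Between NC and gag-pol, edgeR called 0 channel genes and 0.0873% of all genes tested. Of the channel genes, 6 (6.25%) had an unadjusted p-value under 0.05 in this comparison, beside 9.92% of all genes tested. DESeq2 called 0 and had 7 under 0.05, and without gag-pol replicate 3 edgeR called 2.

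The study asked what a free nucleocapsid does, which can come from gag-pol by self-cleavage and from the NC construct, so these constructs were also averaged and set against the average of gag and control, called the nucleocapsid contrast here. On this contrast 20 channel genes were called, 15 higher and 5 lower. The largest rises included those of the pore subunits *KCNQ1* and *KCNA6*, the silent subunits *KCNG1* and *KCNF1*, *KCNMA1* and *CACNG6*. Those lower included *SCN11A*, *KCNS1*, *KCNE2* and *KCND1*. By role, 5 of 21 voltage-gated potassium pore subunits tested rose and 1 fell, 3 of 7 silent subunits rose and 1 fell, 2 of 11 potassium auxiliary subunits rose and 1 fell, and 1 of 6 ion-activated potassium channels and 1 of 12 inward rectifiers rose. Of the sodium pore subunits 1 of 6 rose and 1 fell. Among the other calcium channel genes 1 of 9 pore subunits and 1 of 4 gamma subunits rose and 1 of 4 beta subunits fell. EdgeR called 0 of 10 2-pore-domain channels, 0 of 3 sodium beta subunits and 0 of 3 alpha2delta subunits. At an unadjusted p-value under 0.05 there were 3, 2 and 0 of them, beside 36.5% of all genes tested. DESeq2 called 1, 1 and 0. In all, 12 of 67 potassium channel genes were higher (17.9%), beside 15 of 96 channel genes (15.6%). The 20 calls were 20.8% of the channel genes, beside 24.7% of all genes tested, with 13.1% of all genes higher and 11.6% lower. On the same contrast 4 of the 9 HEK293 markers were called, 3 of them higher, and their part in these calls was not tested. The count was 13 without gag-pol replicate 3, was 22 by DESeq2, and was 0 in edgeR without the replicate number in the model (14 at an unadjusted p-value under 0.05). Over all genes tested the calls were 4244 in the full fit, 2818 without gag-pol replicate 3 and 4562 by DESeq2. When any difference among the 4 constructs was tested, 19 channel genes (19.8%) were called, beside 20.6% of all genes. The count was 11 when either gag replicate 1 or NC replicate 1 was left out, and 12 when gag replicate 3 was left out. It was 0 in edgeR without the replicate number (6 at an unadjusted p-value under 0.05). Over all genes tested the calls were 3538 in the full fit, and 1973, 2282 and 2819 without gag replicate 1, NC replicate 1 and gag replicate 3.

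**Figure D2:**
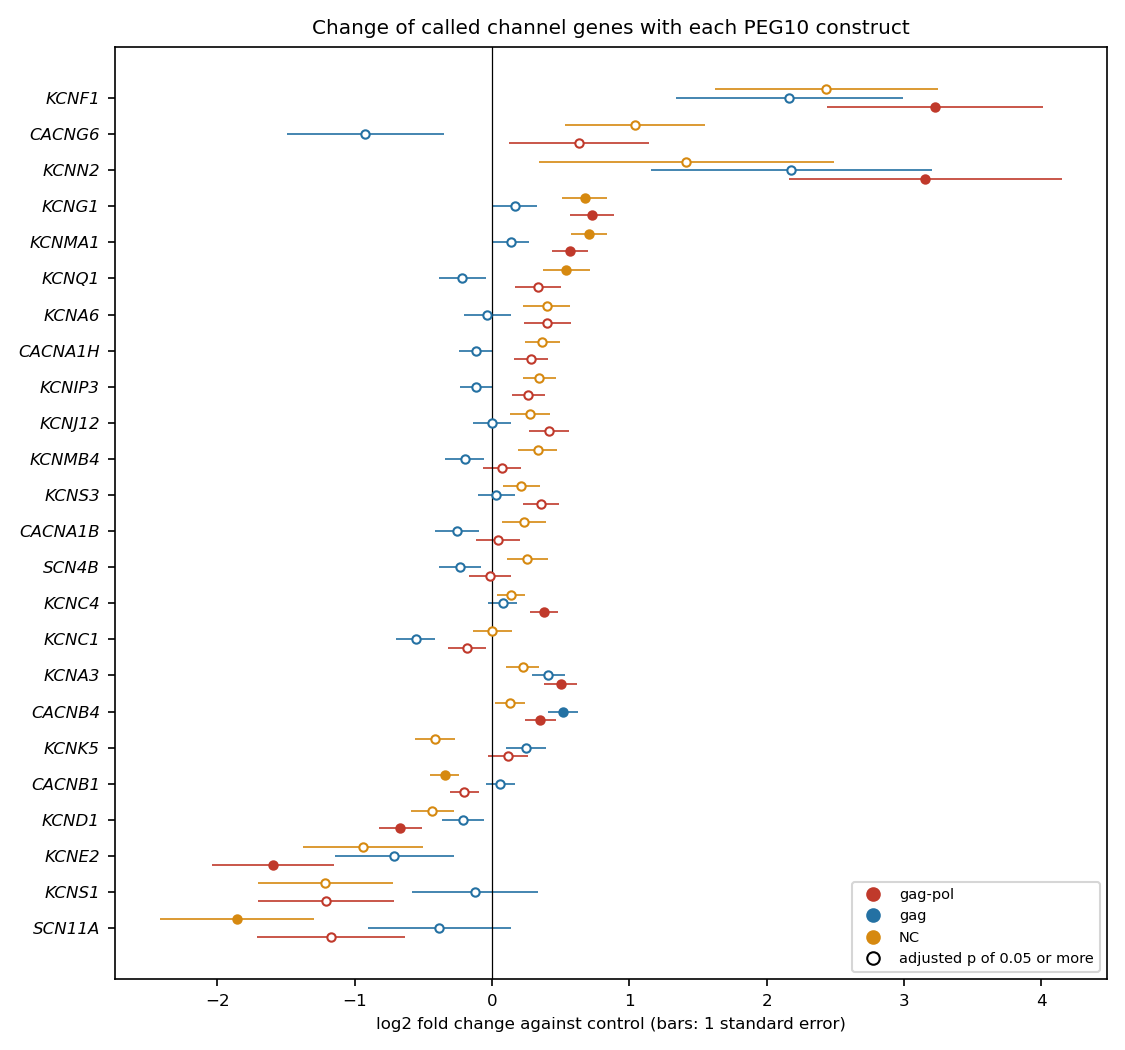
Log2 fold change against control with gag-pol, gag and NC for 24 of the 28 channel genes called in any comparison of constructs, with bars of 1 standard error from edgeR; filled points passed an adjusted p-value of 0.05 in that comparison. *KCNG1* and *KCNMA1* lie between 0.57 and 0.73 with gag-pol and NC and at 0.16 or less with gag, while the largest fold changes (*KCNF1*, *KCNN2*) belong to genes with few counts and wide bars.

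*KCNMA1*, the pore of the calcium- and voltage-activated BK channel, lies on chromosome 10 (GRCh38, chr10:76869601-77638369, reverse strand). Its normalized counts in replicates 1, 2 and 3 were 427, 541 and 277 in control, 528, 775 and 504 in gag-pol, 463, 588 and 315 in gag, and 757, 816 and 446 in NC. Replicate 2 was the highest and replicate 3 the lowest within every construct, so the groups overlapped as a whole, while within each replicate number gag-pol and NC exceeded control and gag. Its log2 fold change against control was 0.57 ± 0.13 (SE; adjusted p = 0.0077, edgeR) for gag-pol, 0.70 ± 0.13 (adjusted p = 0.0026) for NC and 0.14 for gag (adjusted p = 0.72). Without gag-pol replicate 3 the gag-pol value was 0.42 and no longer passed (adjusted p = 0.077). On the nucleocapsid contrast the log2 fold change was 0.57 ± 0.09 (adjusted p = 0.00022). The calls for NC against control and on the nucleocapsid contrast remained in 15 of 15 fits that left out 1 library or 1 replicate number. Without the replicate number in the model, the log2 fold change on the nucleocapsid contrast was 0.55, with an adjusted p of 0.29. Its beta subunit *KCNMB4*, which slows the gating of the BK channel in neurons, rose with NC against gag by 0.53 ± 0.14 on the log2 scale (adjusted p = 0.013). Every NC library of *KCNMB4* (594 to 742 normalized counts) was above every gag library (422 to 527). This call was lost without gag replicate 1 (0.46) and without NC replicate 1 (0.40). Against control *KCNMB4* was not called with gag-pol, gag or NC.

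*KCNG1* (chr20:51003656-51023107, reverse strand) encodes a subunit that forms no channel alone and alters the gating of other potassium channels. Its normalized counts were 1198, 1739 and 639 in control, 1746, 2209 and 1661 in gag-pol, 1223, 1822 and 893 in gag, and 1564, 2340 and 1565 in NC. Control replicate 3 was the lowest of all 12 libraries, and every gag-pol and NC value exceeded the control and gag values of the same replicate number. The log2 fold change was 0.73 ± 0.16 (adjusted p = 0.013) with gag-pol and 0.67 ± 0.16 (adjusted p = 0.020) with NC. It was not called without gag-pol replicate 1 in the former comparison (adjusted p = 0.057) and without NC replicate 3 in the latter (adjusted p = 0.076). On the nucleocapsid contrast *KCNG1* rose by 0.62 ± 0.11 (adjusted p = 0.0022), and this call remained in 15 of 15 such fits.

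**Figure D3:**
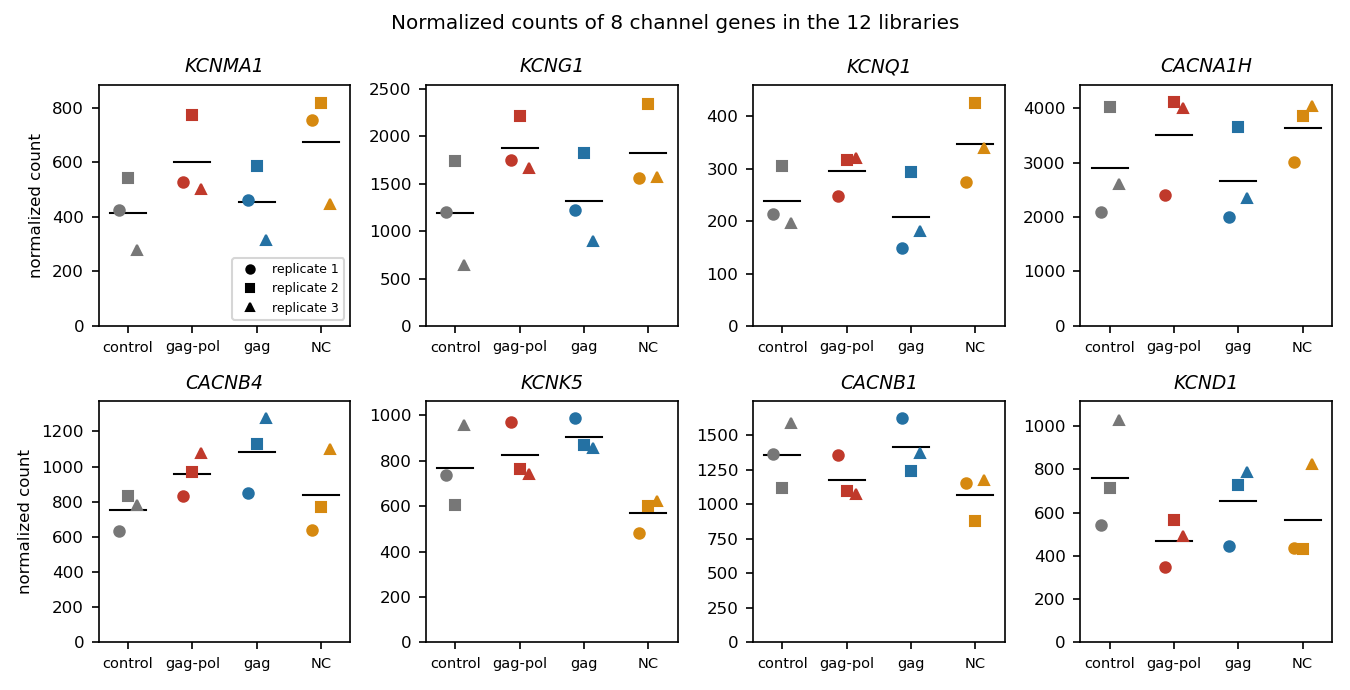
Normalized counts of 8 channel genes in each of the 12 libraries (linear axes from 0), by construct, with the replicate number as the marker shape and the mean of each group as a line. Within each replicate number, *KCNMA1* and *KCNG1* were higher with gag-pol and NC than with control and gag, whereas *KCNK5* was lowest with NC and *CACNB4* was highest with gag on average.

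*KCNQ1*, the partner of *KCNE1* in the slow delayed rectifier of the heart, differed most between NC and gag. It had 213, 304 and 196 normalized counts in control, 249, 316 and 321 in gag-pol, 149, 293 and 181 in gag, and 274, 425 and 340 in NC. NC replicate 1 lay below gag replicate 2, so the groups overlapped. The log2 fold change of NC against gag was 0.76 ± 0.17 (adjusted p = 0.0047) and was called in 12 of 12 fits without 1 library. Against control it was 0.54 ± 0.17 for NC (adjusted p = 0.040), and that call was lost without control replicate 3 (0.42) and without 4 other libraries in turn.

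*KCNA3*, a delayed rectifier known from lymphocytes, rose with gag-pol by 0.50 ± 0.12 (adjusted p = 0.0088), and its groups overlapped. Its call was lost without control replicate 1 (0.43, adjusted p = 0.053) and without control replicate 3 (0.46, adjusted p = 0.051). *KCNC4* rose by 0.38 ± 0.10 (adjusted p = 0.020), a call kept in 7 of 12 such fits.

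Among sodium channel genes, *SCN4B*, a beta subunit known for its part in resurgent sodium current, had 513, 562 and 364 normalized counts in control, 382, 523 and 527 in gag-pol, 335, 480 and 418 in gag, and 515, 597 and 611 in NC. All NC libraries were above all gag libraries, and the other groups overlapped. The log2 fold change of NC against gag was 0.49 ± 0.15 (adjusted p = 0.028), a call kept in 7 of 12 fits without 1 library, with the value from 0.41 to 0.58 over all leave-out fits. *SCN8A*, the highest sodium pore subunit, had log2 fold changes of -0.04 for gag-pol, -0.07 for gag and -0.12 for NC against control, none of which passed the test.

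Among calcium channel genes, *CACNB1* (chr17:39173453-39197702, reverse strand) was lower on the nucleocapsid contrast, on which *KCNMA1* and *KCNG1* were higher. With gag-pol against control *CACNB1* was not called. Its normalized counts were 1365, 1120 and 1587 in control, 1359, 1093 and 1075 in gag-pol, 1627, 1239 and 1374 in gag, and 1152, 878 and 1178 in NC. All NC libraries were below all gag libraries. *CACNB1* fell by 0.35 ± 0.10 on the log2 scale with NC against control (adjusted p = 0.035) and by 0.41 against gag (adjusted p = 0.011). The former was not called without control replicate 3 (-0.22) or without 4 other libraries in turn, while on the nucleocapsid contrast the change of -0.30 ± 0.07 (adjusted p = 0.0047) was called in 15 of 15 fits.

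*CACNB4* had 635, 834 and 783 normalized counts in control, 833, 970 and 1079 in gag-pol, 850, 1129 and 1276 in gag, and 639, 769 and 1099 in NC. The gag libraries were all above the control libraries. The log2 fold change was 0.52 ± 0.11 (adjusted p = 0.020) for gag and 0.35 ± 0.11 (adjusted p = 0.041) for gag-pol, and 0.13 for NC. The gag-pol value was 0.25 (adjusted p = 0.24) without control replicate 3, and that call was kept in 4 of 12 fits without 1 library. *CACNA1H*, the highest calcium pore subunit, did not pass against control (log2 fold change 0.28 for gag-pol, -0.12 for gag and 0.37 for NC). On the nucleocapsid contrast its log2 fold change was 0.38 ± 0.09 (adjusted p = 0.0064), with control replicate 2 at 4030 normalized counts, within the range of the gag-pol libraries (2411 to 4119) and of the NC libraries (3011 to 4038).

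*KCNK5* was lower with NC than with gag. Its normalized counts were 739, 606 and 956 in control, 971, 763 and 744 in gag-pol, 987, 871 and 856 in gag, and 483, 602 and 625 in NC. All NC libraries were below all gag libraries, and NC was lower than gag by 0.66 on the log2 scale (SE 0.15, adjusted p = 0.0053). Against control, NC gave -0.41, which did not pass the test, and the difference between NC and gag-pol did not either. Without NC replicate 1 the difference from gag was -0.50, with an adjusted p of 0.050 that no longer passed.

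*KCND1* (chrX:48961378-48971844, reverse strand) had 543, 715 and 1030 normalized counts in control, 349, 569 and 493 in gag-pol, 445, 730 and 790 in gag, and 436, 433 and 826 in NC. Control replicate 3 was the highest of all 12 libraries. The fall with gag-pol was -0.67 ± 0.16 (adjusted p = 0.0093), and it was -0.59 (adjusted p = 0.065) without control replicate 3 and -0.48 (adjusted p = 0.075) without gag-pol replicate 3. On the nucleocapsid contrast the value was -0.45 ± 0.11 (adjusted p = 0.0061), called in 15 of 15 fits.

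The largest fold changes belonged to genes with few counts. *KCNF1* had raw counts of 4, 0 and 4 in control, 17, 36 and 27 in gag-pol, 20, 6 and 9 in gag, and 14, 18 and 12 in NC. *KCNN2* had 6, 0 and 0 in control, 14, 18 and 10 in gag-pol, 16, 8 and 1 in gag, and 10, 6 and 0 in NC. Both passed the filter on low counts through the libraries in which they were high, so a difference was built into their selection, and their fold changes depend on how zeros are handled. *KCNN2* was kept in 4 of 12 fits without 1 library, and *KCNF1* in 10 of 12, the exceptions being control replicate 2 and gag-pol replicate 2. *CACNG6*, a calcium channel gamma subunit, had 8, 34 and 9 counts in control, 12, 38 and 26 in gag-pol, 4, 12 and 7 in gag and 27, 43 and 20 in NC. It reached 10 counts in 8 libraries, among them every gag-pol and NC library, so the same limit of selection holds for it. It was higher with NC than with gag by 1.96 ± 0.55 on the log2 scale (adjusted p = 0.018). That call was lost when gag replicate 1 or 2 or NC replicate 1 was left out.

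The genes that fell most were also thinly counted. *KCNE2* had raw counts of 55, 29 and 123 in control and 23, 14 and 34 in gag-pol, with a log2 fold change of -1.60 ± 0.45 (adjusted p = 0.023) that was -0.90 (adjusted p = 0.33) without control replicate 3. *SCN11A* had 38, 31 and 66 in control and 15, 4 and 17 in NC, with -1.86 ± 0.56 (adjusted p = 0.035) and -1.55 (adjusted p = 0.22) without control replicate 3. *KCNS1* had 20, 32 and 87 counts in control and 14, 23 and 98 in gag, where replicate 3 stood above the rest in both, and 18, 10 and 33 in gag-pol and 21, 4 and 33 in NC. *KCND1*, *KCNE2* and *SCN11A* had their highest normalized count in control replicate 3. So did 7 of the 18 markers of other cell types, among them *COL3A1* with 376 normalized counts there and 18.6 to 172 in the other libraries. Of the 96 channel genes tested, 13 were highest in control replicate 3 and 11 were lowest there. By comparison, 18 were highest in NC replicate 3 and 12 in gag-pol replicate 2. The summed level of the 18 markers was 1877 to 3460 normalized counts in control, 1731 to 2166 in gag-pol, 2126 to 2957 in gag and 1473 to 1905 in NC. Only 12 of these 18 markers passed the filter on low counts. EdgeR called 6 of the 12 for gag-pol against control (5 lower), where 11.3% of all genes tested were called. For NC it called 3 (3 lower), beside 11.2% of all genes, and for gag 0, beside 1.08%. The part of these markers in the fall of these channel genes was not tested.

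Promoter sequences from the nucleocapsid contrast are shown because the genes concerned moved in opposite directions on that contrast. RefSeq promoters of GRCh38.p14, from 250 bases before the start of a gene to 50 after it, were matched by symbol for 97 of the 135 channel genes. The 250 bases before the RefSeq start are printed for *KCNMA1* (chr10:77637809-77638058, reverse strand), which was higher on the contrast. They are also printed for *CACNB1* (chr17:39197670-39197919, reverse strand) and *KCND1* (chrX:48971845-48972094, reverse strand), which were lower on it. Against control, *KCNMA1* was called with both gag-pol and NC, *CACNB1* with NC only and *KCND1* with gag-pol only. RefSeq lists 2 promoters for *KCNMA1*, of which the first is shown. The gene positions given above are those of GENCODE, whose outermost start differs for 2 of these genes, so that 250 of the bases shown for *KCNMA1* and 33 of those for *CACNB1* lie within the gene as GENCODE draws it. These 3 genes were chosen for display after their values were seen. Capitals mark each GGGCGG on either strand, the core of the GC box, which reads CCGCCC on the other strand.
KCNMA1: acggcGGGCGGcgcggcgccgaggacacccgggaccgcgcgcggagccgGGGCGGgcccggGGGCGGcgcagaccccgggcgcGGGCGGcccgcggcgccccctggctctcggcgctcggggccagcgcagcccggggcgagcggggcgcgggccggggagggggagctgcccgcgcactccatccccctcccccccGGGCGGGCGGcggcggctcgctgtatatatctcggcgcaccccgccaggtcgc
CACNB1: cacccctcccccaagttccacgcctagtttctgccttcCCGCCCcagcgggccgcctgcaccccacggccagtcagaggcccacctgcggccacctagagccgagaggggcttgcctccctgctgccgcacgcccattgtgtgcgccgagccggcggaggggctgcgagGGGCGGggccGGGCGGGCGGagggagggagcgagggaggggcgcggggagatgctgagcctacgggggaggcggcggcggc
KCND1: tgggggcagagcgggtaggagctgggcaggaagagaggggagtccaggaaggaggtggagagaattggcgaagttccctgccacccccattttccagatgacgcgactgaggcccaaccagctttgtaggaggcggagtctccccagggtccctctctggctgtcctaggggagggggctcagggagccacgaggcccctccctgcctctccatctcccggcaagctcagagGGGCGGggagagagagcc
The promoters of *KCNMA1*, *CACNB1* and *KCND1* held 6, 4 and 1 such boxes within the 250 bases, so higher and lower genes both had them. Over the whole window of 300 bases, GGGCGG occurred in 61.9% of the channel promoters and in 44.6% of all 27305 promoters. For the other elements searched on both strands, CCAAT occurred in 34.0% of channel promoters and 35.7% of all, TATAAA in 7 of 97 channel promoters and 3264 of all 27305, and the cAMP response element TGACGTCA in 1.03% and 1.98%. The median GC content was 65.0% in the channel promoters and 58.3% in all. Among the 70 matched promoters of channel genes tested, 67.1% held GGGCGG, and among the 27 of channel genes not tested 48.1% did. These are counts of letters, not of bound sites.

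*KCNIP3*, a calcium-binding partner of A-type channels, had 471, 708 and 666 normalized counts in control, 547, 780 and 903 in gag-pol, 440, 683 and 576 in gag, and 601, 777 and 970 in NC. Within each replicate number both gag-pol and NC were above control and gag, and across numbers the groups overlapped. On the nucleocapsid contrast its log2 fold change was 0.36 ± 0.08 (adjusted p = 0.0032), and it was called in 14 of 15 leave-out fits.

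More channel genes differed between replicate numbers than between constructs. When the 3 replicate numbers were tested for any difference, 43 of the 96 channel genes (44.8%) were called, beside 52.8% of all genes tested. The range between replicate-number means had a median of 0.63 on the log2 scale for channel genes and 0.38 for all genes, and the range between construct means had a median of 0.48 and 0.32. The replicate range was the larger in 56 of 96 channel genes (58.3%), against 56.9% of all genes. *CACNA1G*, a T-type calcium channel pore like *CACNA1H*, had the smallest p-value, with means of 390, 700 and 1071 normalized counts in replicates 1, 2 and 3 (adjusted p = 3.3e-08). *KCNH3* had 296, 355 and 571, *CACNA1C*, the main L-type pore of heart muscle, had 440, 745 and 768, and *KCNJ14* had 402, 679 and 721. *KCNMA1* had 543, 680 and 385, with replicate 3 lowest. The 12 genes with the smallest p-values also included *CACNB3*, *KCNC1*, *KCNJ4*, *KCNH2*, *KCNIP3* and *CACNA2D2*. *KCNH2* thus had mean counts of 1730, 2220 and 2485 by replicate number, and 2126 ± 351 in control, 2259 ± 376 in gag-pol, 2049 ± 464 in gag and 2146 ± 509 in NC (SD, n = 3).

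**Figure D4:**
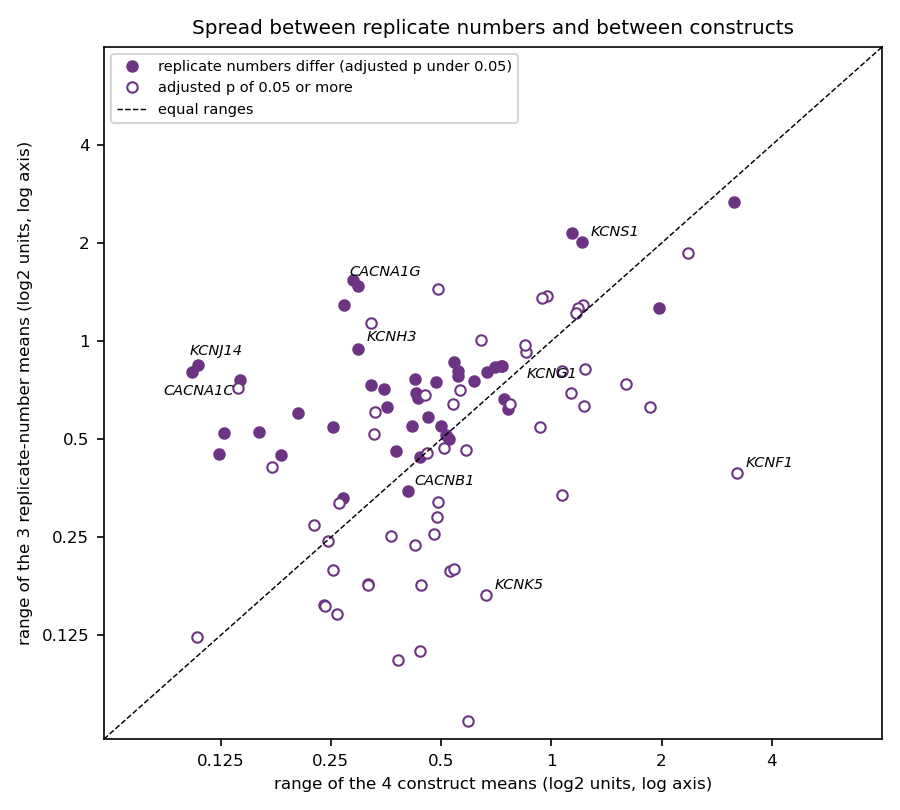
Range of the 3 replicate-number means against the range of the 4 construct means for each of the 96 channel genes tested (log2 units, log axes); filled points differed between replicate numbers at an adjusted p-value under 0.05 and the dashed line marks equal ranges. Of the 96 genes, 56 lie above the line, with *CACNA1G* and *KCNJ14* far above it and *KCNK5* and *KCNF1* below.

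Other genes of excitability were examined as lists chosen by function. Of 21 other genes for channels and related exchangers (HCN, CLCN, TPCN, CATSPER, HVCN1 and NALCN), 17 were tested. The list was not limited to voltage-gated channels. With gag-pol 1 rose and 2 fell (17.6% called, beside 11.3% of all genes tested), and with NC 1 rose and 3 fell (23.5%, beside 11.2%). Without the replicate number in the model edgeR called 0 in both comparisons, with 4 and 2 at an unadjusted p-value under 0.05. With gag edgeR called 0, with 3 at an unadjusted p-value under 0.05 (13.7% of all genes tested), and DESeq2 called 0. The chloride-proton exchanger *CLCN7* of lysosomes fell by 0.63 on the log2 scale with gag-pol (adjusted p = 0.0043) and by 0.68 with NC (adjusted p = 0.0036), and *CLCN6* fell by 0.70 with NC (adjusted p = 0.0089). *CLCN3* fell by 0.32 with gag-pol and *HCN3* by 0.34 with NC. The pacemaker channel *HCN4* rose by 0.66 with gag-pol (adjusted p = 0.0095), and *NALCN*, the sodium leak channel, by 0.54 with NC (adjusted p = 0.046). Control replicate 3 had the highest normalized counts of *CLCN7* (10457, and 6334 and 4776 in control replicates 1 and 2) and of *CLCN6* (1468, and 1153 and 747), as it had for *KCND1*, *KCNE2* and *SCN11A*. Without it the *CLCN7* changes were -0.45 (adjusted p = 0.0095) with gag-pol and -0.50 (adjusted p = 0.0080) with NC, both still called. The calls of *CLCN6* (-0.49, adjusted p = 0.068), *CLCN3* (-0.32, adjusted p = 0.069), *HCN3* (-0.22, adjusted p = 0.30), *HCN4* (0.58, adjusted p = 0.060) and *NALCN* (0.43, adjusted p = 0.24) were lost without this library. The median log2 fold change of this list was -0.16 for gag-pol, -0.02 for gag and -0.07 for NC.

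Of 34 channel partners, which anchor, traffic or regulate channels, 32 were in the table and 26 were tested. With gag-pol 2 fell (7.69% called, beside 11.3% of all genes tested), and with NC 1 rose and 2 fell (11.5%, beside 11.2%). Without the replicate number in the model edgeR called 0 in both comparisons, with 2 and 2 at an unadjusted p-value under 0.05. With gag edgeR called 0, with 8 at an unadjusted p-value under 0.05 (13.7% of all genes tested), and DESeq2 called 1. *UNC79*, a subunit of the NALCN complex, fell by 1.56 on the log2 scale with gag-pol (adjusted p = 0.0026) and by 0.91 with NC (adjusted p = 0.048). *ANK3*, ankyrin-G, which clusters channels at the axon initial segment, fell by 0.44 with gag-pol (adjusted p = 0.0073). *RRAD*, a small GTPase that inhibits calcium channels, fell from 66.3 ± 47.3 normalized counts in control to 17.5 ± 5.5 with NC (SD, n = 3, edgeR adjusted p = 0.0096). The calmodulin gene *CALM2* rose by 0.25 on the log2 scale with NC. *RRAD* was also highest in control replicate 3, at 120 normalized counts beside 45.7 and 32.8 in the other control libraries. Without that library the gag-pol change of *UNC79* was still called (-1.35, adjusted p = 0.025), while the calls of *ANK3* (-0.33, adjusted p = 0.072), of *RRAD* (-1.38, adjusted p = 0.12), of *UNC79* with NC (-0.71, adjusted p = 0.26) and of *CALM2* (0.19, adjusted p = 0.25) were lost. The median log2 fold change of the partners was 0.05 for gag-pol, -0.00 for gag and 0.05 for NC. The REST repressor complex, which silences neuronal channel genes in other cells, was represented by 9 genes, all tested. Against control edgeR called 0 of these with gag-pol, gag and NC, and DESeq2 called 1 in each. At an unadjusted p-value under 0.05 there were 2, 3 and 2, beside 27.3%, 13.7% and 27.1% of all genes tested. The median log2 fold changes of the 9 genes were -0.06, 0.01 and -0.12 for gag-pol, gag and NC.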

How the data were processed

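Per the labels and the study's methods, the authors sequenced polyadenylated RNA as read pairs (Tecan Universal Plus mRNA-Seq libraries), mapped reads to GRCh38.p13 with STAR 2.7.3, sorted the alignments with SAMtools 1.8 and counted reads per gene with featureCounts. The values analyzed are the raw counts the authors deposited, 26485 gene symbols in 12 libraries with no normalization. The annotation release, strand setting and handling of multimapping reads are not given in the sources used here.

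Counts were analyzed in R 4.3.3 with edgeR 4.0.16 and limma 3.58.1. Genes passed edgeR's filter on low counts by construct (minimum count 10, minimum total count 15), which left 17176 genes with 99.973% of counts. A single quasi-likelihood model with robust estimation and TMM factors was fitted to the 12 libraries together, its terms being the construct and the replicate number (6 residual degrees of freedom). P-values were adjusted by Benjamini-Hochberg over all genes tested, at a threshold of 0.05, and the standard error is the log2 fold change divided by the root of F. The biological coefficient of variation was 10.7%. The script was tested on simulated counts.

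Replicate numbers were taken as passages. After construct means were removed, the 18 pairs of libraries with the same number correlated at 0.205 to 0.697, and the 36 pairs with different numbers at -0.647 to 0.109. Removing the construct means makes these ranges depend on each other. Neither range shows whether a replicate number is a passage or another shared batch. The 12 pairs of replicates within constructs exceeded counting noise (chi-square per degree of freedom 32.1 to 107).

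Alternatives were DESeq2 1.42.0 (as the study used, with harvest date and construct), factors by RLE or by the upper quartile, counts without *PEG10*, a filter of none or of 10 counts throughout, a model lacking the replicate number or the robust step, a fit to the 6 libraries compared, a minimum absolute log2 fold change of 0.5, and leaving out each library or replicate number.

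The genes, lists and comparisons were chosen with earlier results of these data known. Named genes were those called in a comparison (the 12 with the largest absolute log2 fold change, or the smallest p-value, where more were called), the highest per kb in each subfamily, the 10 highest in all, *SCN2A*, *KCNH2*, *PEG10* and called genes of the lists. The 3 promoters shown, the leaving out of libraries for genes of the lists, and the values of *CACNA1H* and *KCNIP3* on the nucleocapsid contrast, were chosen after their values were seen. Some channel genes that are part of the counts are not reported here by name. Exon lengths and overlaps are from GENCODE 44 on GRCh38, and promoters from RefSeq, in Python 3.11.15 with pandas 2.3.3 and matplotlib 3.10.9.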

Additional observations from a re-analysis of the deposited data

How the results depend on the processing

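The replicate number in the model decided the calls: without this block the count of channel genes called was 0 in each of the 8 comparisons of constructs, and the log2 fold changes of the named called genes kept their direction. Over fits that left out 1 library or 1 replicate number, the count ran from 2 to 14 for gag-pol against control, from 0 to 2 for gag against control, from 2 to 11 for NC against control, from 0 to 8 for gag-pol against gag, from 0 to 18 for NC against gag, from 0 to 2 for NC against gag-pol, from 6 to 21 for the nucleocapsid contrast, from 2 to 18 for any construct and from 11 to 46 for the replicate numbers. With no filter on low counts there were 2 calls for gag against control, 11 for NC against control, 6 for gag-pol against gag and 1 for NC against gag-pol. With only the 6 libraries compared there were 2 for gag against control and 12 for gag-pol against gag. DESeq2 gave 3, 11 and 8 for gag against control, NC against control and gag-pol against gag. For gag-pol against gag, RLE factors gave 2 and no robust estimation gave 3. With a minimum absolute log2 fold change of 0.5, 10 remained for NC against gag and 9 for the nucleocapsid contrast. Calls over all genes tested shifted too. For gag-pol against control they were 1942 in the full fit, 422 without replicate 1 and 1954 without NC replicate 3. For NC against gag they were 2898, 342 without replicate 1 and 3556 without control replicate 3. With no filter they were 373 for gag against control and 2311 for NC against control, beside 186 and 1922. Without the replicate number they were 0 to 3 in the comparisons of constructs. The cause of these shifts was not tested. Of the values of single called genes under the alternatives, 1009 stayed past the threshold and 326 did not, and 0 changed direction. This tally leaves out the minimum absolute log2 fold change. It also leaves out fits in which the gene was filtered out or had no adjusted p-value. Of the channel genes, 70 had 10 or more counts in every library, and 135 had at least 1 count in some library. The filter on low counts left 39 of 135 channel genes without a fold change.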
